A study of Mus musculus with 12 samples.

Results

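A dividing cell copies its genome at replication forks, and the genes of the fork machinery and of deoxynucleotide supply were examined here in testes that lacked the retinoblastoma protein in Sertoli cells. The gene set lists 44 genes in 7 subgroups by role, drawn up with earlier results of these data known. The subgroups are polymerases, clamp and loader, single-strand binding and lagging-strand processing, nucleotide synthesis, histone chaperones, origin recognition and firing, and fork protection. Each gene was read through its brightest probe, counting only probes whose detection p lay under 0.05 on 3 or more arrays, and 39 of the 44 had such a probe. These 39 were among 11076 genes tested, and all 39 were detected on all 12 arrays. The other 5 could not be read: Pcna, Pola1 and Prim1 (1 probe each) and Pole2 (2 probes) were detected on 0 arrays, and neither of the 2 probes for Orc2 was detected on more than 1 array. The sliding clamp Pcna and the catalytic subunit of polymerase alpha are therefore missing from every count below.

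Total RNA of whole testes from mice aged 10 days was hybridised to Illumina MouseWG-6 v2 BeadChips, which read transcripts through probes on beads. In these mice Cre recombinase was driven by the promoter of anti-Müllerian hormone (Amh), a Sertoli cell product, and its target was a floxed Rb gene (Rb1). The groups were wild type (WT, 5 arrays, WT 8 to WT 12), Sertoli cell deletion of 1 Rb1 copy (HET, labelled SC-Rb+/-, 3 arrays, HET 5 to HET 7) and Sertoli cell deletion of both copies (KO, labelled SC-RbKO, 4 arrays, KO 1 to KO 4). The labels used here do not give whether the WT mice carried Cre or floxed alleles. They also do not say that the RNAs came from separate mice or litters, so the p-values reflect only how these samples vary. The deletion was confined to Sertoli cells by design, while RNA came from the whole organ, in which Sertoli cells, germ cells and other dividing cells all contribute replication transcripts. In such RNA, fewer cells of a type and less RNA per cell cannot be told apart.

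As background, the retinoblastoma protein binds E2F transcription factors and represses their targets outside S phase, and many fork and nucleotide synthesis genes are E2F targets. At the fork, polymerase alpha with primase starts each stretch of DNA, polymerase delta and polymerase epsilon extend it, and the PCNA clamp, placed by the replication factor C loader, holds them on the template. Ribonucleotide reductase and thymidylate synthase supply the deoxynucleotides, and histone chaperones repack the new DNA behind the fork. Mouse Sertoli cells still divide in the first weeks after birth and then leave the cell cycle for good, while spermatogonia go on dividing.

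Detection and brightness were alike across arrays, with 39.3 to 43.7 percent of probes detected and a median unnormalized intensity of 52.2 to 60.2. Rb1 itself was read by 2 probes, and their place relative to the deleted part was not analysed here, so they do not check the labels. The brighter Rb1 probe averaged 9.07 ± 0.19 in WT, 9.04 ± 0.22 in HET and 8.82 ± 0.30 in KO (log2 intensity, mean ± SD), a KO minus WT difference of −0.26 (SE 0.15, adjusted p = 1 by limma). The dimmer one averaged 7.80 ± 0.22 in WT, 7.38 ± 0.06 in HET and 7.33 ± 0.29 in KO, a difference of −0.47 (SE 0.14, unadjusted p = 0.0058, adjusted p = 1 by limma). The library labelled KO 1 read 9.26 on the brighter probe, above all WT arrays but WT 9, and 7.74 on the dimmer, inside the WT range of 7.63 to 8.15. KO 2, KO 3 and KO 4 read 7.33, 7.11 and 7.15 on the dimmer probe, below every WT array, so KO 1 stood apart from its group. The members' median in KO against WT and some single genes are also given without KO 1. Arrays WT 12, HET 6 and HET 7 stood apart in 12 detected spermatocyte genes, whose mean relative to WT was 0.95, −1.23 and 1.05 on the log2 scale, against −0.43 to 0.04 on the other 9 arrays. Of the Sertoli cell markers 12 of 16 were detected, among them Sox9 and Amh on all 12 arrays, and their mean lay between −0.18 and 0.15 on every array. The germ cell markers Ddx4 and Dazl were also detected on all 12 arrays.

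The promoter sequences show where the letters that E2F proteins bind lie in 5 of the genes whose values follow, and the windows were taken from RefSeq on GRCm38.p6, from 250 bases before to 50 bases after the transcript start. Windows were found for 37 of the 44 members. The motif searched was TTTCCCGC, TTTCGCGC, TTTGCCGC or TTTGGCGC on either strand, and it was held by 8 of 37 members (21.6 percent). Among tested members with a window it was in 6 of 32 (18.8 percent), and among all genes tested with a window in 4.78 percent. The shorter core without the first T, which overlaps the longer motif and was searched after the longer one had been counted, was in 20 of 37 members (54.1 percent), in 17 of the 32 tested (53.1 percent) and in 19.4 percent of genes tested with a window. The sequences below are read 5′ to 3′ on the gene's own strand, and capitals mark the longer motif in Pold1, Lig1 and Gins3 and the core in Chaf1b and Rrm1. The first match in Chaf1b began 227 bases before the transcript start, that in Rrm1 67 before it and that in Gins3 41 before it, while those in Pold1 and Lig1 lay after the start. Chaf1b and Rrm1 were added after the core had been found in them and hold no longer motif. Both were picked from members higher in KO than in WT at an unadjusted p under 0.05 by limma. Pola2, Pold2 and Tyms, also higher at that level, held neither the longer motif nor the core and are not printed. Lig1 had 3 windows, of which the one with the longer motif is shown, and its further core match is left in lower case.
Chaf1b, chr16:93883651-93883950, plus strand: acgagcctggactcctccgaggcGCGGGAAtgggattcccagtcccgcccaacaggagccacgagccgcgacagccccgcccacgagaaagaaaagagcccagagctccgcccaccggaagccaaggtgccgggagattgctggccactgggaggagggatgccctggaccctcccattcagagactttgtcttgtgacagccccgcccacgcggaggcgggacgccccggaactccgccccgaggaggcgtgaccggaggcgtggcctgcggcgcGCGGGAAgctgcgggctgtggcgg
Rrm1, chr7:102441445-102441744, plus strand: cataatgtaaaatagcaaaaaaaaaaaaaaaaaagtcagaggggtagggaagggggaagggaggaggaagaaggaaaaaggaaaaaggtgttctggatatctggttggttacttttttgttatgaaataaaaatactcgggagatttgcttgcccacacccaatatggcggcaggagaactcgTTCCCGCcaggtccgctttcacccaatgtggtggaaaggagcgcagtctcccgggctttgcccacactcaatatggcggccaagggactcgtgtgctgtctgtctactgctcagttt
Pold1, chr7:44548766-44549065, minus strand: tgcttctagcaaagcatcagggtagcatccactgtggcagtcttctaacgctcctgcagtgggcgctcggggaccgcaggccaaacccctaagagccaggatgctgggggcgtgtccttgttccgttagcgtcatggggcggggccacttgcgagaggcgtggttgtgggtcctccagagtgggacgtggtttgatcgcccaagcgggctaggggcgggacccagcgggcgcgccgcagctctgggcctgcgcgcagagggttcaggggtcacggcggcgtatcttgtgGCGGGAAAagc
Lig1, chr7:13278576-13278875, plus strand: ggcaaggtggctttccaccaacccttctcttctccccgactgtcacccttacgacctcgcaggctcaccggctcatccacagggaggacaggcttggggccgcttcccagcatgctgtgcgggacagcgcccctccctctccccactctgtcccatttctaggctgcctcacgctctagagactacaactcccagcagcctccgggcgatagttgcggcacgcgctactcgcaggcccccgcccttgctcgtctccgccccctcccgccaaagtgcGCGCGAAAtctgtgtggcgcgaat
Gins3, chr8:95633309-95633608, plus strand: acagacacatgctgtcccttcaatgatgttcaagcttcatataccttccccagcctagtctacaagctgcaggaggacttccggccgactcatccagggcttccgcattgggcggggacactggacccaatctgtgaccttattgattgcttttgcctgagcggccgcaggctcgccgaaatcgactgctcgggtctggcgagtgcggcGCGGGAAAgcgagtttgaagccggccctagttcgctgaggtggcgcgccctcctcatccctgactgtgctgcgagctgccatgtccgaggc

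Members with and without the longer motif can be set side by side, with no test of the difference. Of the 6 tested members with the longer motif, 2 read higher in KO than in WT, with a median log2 difference of −0.01, and of the 26 tested members whose window lacked it, 21 read higher, with a median of 0.11. In KO against HET, 5 of the 6 with the motif read higher (median 0.19) and 20 of the 26 without it (0.12), and in HET against WT 0 of 6 did (−0.18) and 16 of 26 (0.03). The longer motif was in 4 of 8 polymerase windows, in 2 of 7 for origin genes, in 1 of 5 for the clamp and loader, in 1 of 6 for single-strand binding and lagging-strand processing, and in 0 of 6 for nucleotide synthesis and 0 of 4 for histone chaperones. The CCAAT box bound by NF-Y was in 16 of the 32 tested members with a window and in 42.6 percent of genes tested with one. TTTGAA, the letters of the cell cycle homology region (CHR), was in 28.1 percent of the former and 14.0 percent of the latter, both strands searched. Absence of a match says only that these letters are not in the window.

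Most of the measured fork and nucleotide supply genes read slightly higher in KO testes than in WT, and none of these differences passed the test. Of 39 members 27 (69.2 percent) had a higher mean in KO, against 50.5 percent of all genes tested, with a median log2 difference of 0.08 over the members and 0.00 over all genes. The differences ran from −0.23 for the clamp loader subunit Rfc4 to 0.34 for the histone chaperone subunit Chaf1b. By limma 0 of 39 members had an adjusted p under 0.05, as did 0 percent of all genes tested, and adjusted p was 1 for every member. At an unadjusted p under 0.05 there were 5 members higher in KO (12.8 percent), Chaf1b, Pola2, Pold2, Rrm1 and Tyms, where 1.61 percent of all genes tested were. None of the 39 was lower at that level, where 0.957 percent of all genes were. For 4 members (10.3 percent), Pola2, Pold2, Rpa1 and Rpa3, every KO array lay above every WT array, against 1.16 percent of all genes. Every KO array lay below every WT array for 0 members and 0.776 percent of all genes. The median 95% interval of a member's difference reached 0.24 to either side on the log2 scale. The unadjusted counts moved with single arrays. Leaving out 1 array gave from 2 members higher in KO at an unadjusted p under 0.05 (without KO 2) to 8 (without HET 6). There were 3 without WT 8, WT 10, WT 11, WT 12 or KO 1. Pola2 and Chaf1b were among them in each of the 12 repeats. The share of all genes without the same array is not given here. Rfc4 was lower in KO at that level without WT 8 (difference −0.31, limma unadjusted p = 0.0257). Without KO 1 the members' median was 0.07, with 30 of 39 above 0. In that repeat Chaf1b differed by 0.44, Pola2 by 0.35 and Tyms by 0.29 (limma unadjusted p = 0.000429, 0.00843 and 0.0308). Pold2 differed by 0.23 and Rrm1 by 0.18 (limma unadjusted p = 0.0528 and 0.121). An earlier account of these data reported a list of E2F target and replication genes as higher in KO, so the direction is no independent evidence.

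**Figure D1:**
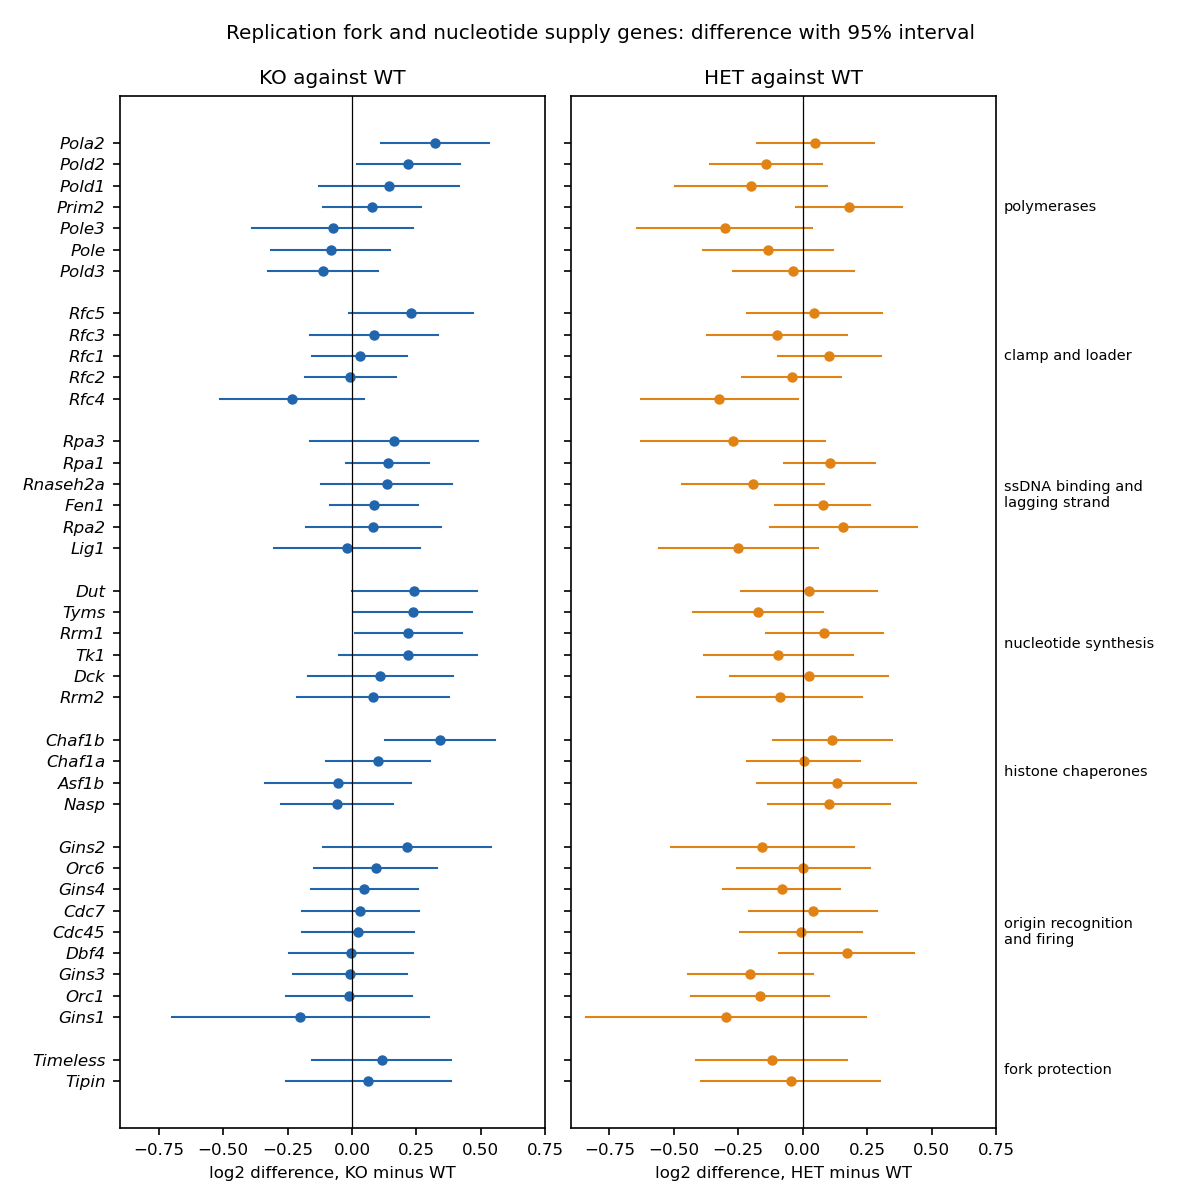
Log2 difference of each of the 39 measured members, KO minus WT and HET minus WT, grouped by role, with 95% intervals from the limma fit (x axis, log2 difference; y axis, genes). In KO minus WT 27 of 39 points lie to the right of 0, and all 6 nucleotide synthesis genes do.

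Averaged over the 39 members, each array can be placed relative to the WT mean on the log2 scale. The WT arrays lay at 0.09, −0.00, −0.05, −0.07 and 0.03, the HET arrays at 0.05, −0.15 and −0.05, and the KO arrays at 0.05, 0.13, 0.10 and 0.02. All 4 KO arrays lay above 0, but WT 8 lay above 2 of them, so the groups overlapped. Over the 8 of 12 proliferation markers that were measured, the per-array means covered −0.09 to 0.14 in WT, −0.06 to 0.19 in HET and −0.02 to 0.08 in KO. Mki67, Bub1, Ccnb1 and Ccnb2 were the proliferation markers not detected on enough arrays. Of these 8 markers 6 read higher in KO than in WT, with a median of 0.06, and their part in the members' differences was not tested. The 12 spermatocyte genes all read lower in KO than in WT (median −0.23), with KO arrays at −0.39 to −0.17 inside the WT range. This rested on WT 12, without which 4 of the 12 read higher in KO and the median was −0.02. Among other markers in KO against WT, 0 of 5 Leydig cell genes (median −0.25) and 1 of 8 macrophage genes (−0.12) read higher. All 5 peritubular genes (0.07) and all 3 erythroid genes (0.20) did, as did 5 of 11 spermatogonial (−0.03), 2 of 6 general germ cell (−0.12), 3 of 12 Sertoli cell (−0.03) and 2 of 5 endothelial genes (−0.00). The part of these lists in the members' differences was not tested. Without WT 12, HET 6 and HET 7 the members' median KO minus WT difference was 0.09, with 31 of 39 above 0. The median was 0.05 without WT 10 and 0.05 without WT 11.

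**Figure D2:**
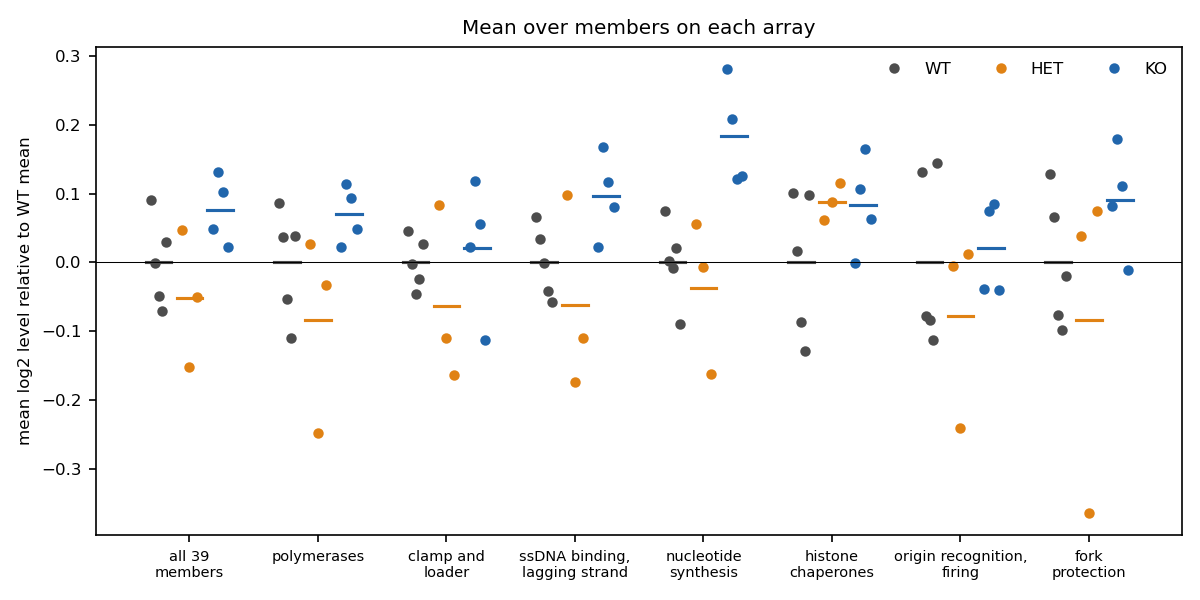
Mean log2 level of all 39 members and of each subgroup on each array, relative to the WT mean (y axis, log2; dots are arrays, lines are group means). The 4 KO arrays lie above every WT and HET array in nucleotide synthesis, and the groups overlap when all 39 members are averaged.

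Polymerase genes were mixed in direction, with the B subunit of polymerase alpha and the second subunit of polymerase delta highest in KO. Of 7 measured members 4 read higher in KO than in WT, with a median of 0.08 and values from −0.11 (Pold3) to 0.32 (Pola2). Pola2, the regulatory subunit that joins primase and polymerase alpha to the origin, read 8.35, 8.05, 7.99, 8.13 and 8.15 on arrays WT 8 to WT 12, 8.35, 8.19 and 8.01 on HET 5 to HET 7 and 8.39, 8.56, 8.41 and 8.47 on KO 1 to KO 4. Every KO array lay above every WT and HET array, the nearest being WT 8 and HET 5. The difference was 0.32 (95% interval 0.11 to 0.53), or 1.25-fold, with a limma unadjusted p of 0.0053 and adjusted p = 1. Pola2's window held none of the promoter letters searched. Pold2, which links the catalytic subunit of polymerase delta to its other subunits, read 9.95, 9.91, 9.88, 9.80 and 9.85 in WT, 9.89, 9.48 and 9.84 in HET and 10.07, 10.23, 10.04 and 10.05 in KO. The groups KO and WT again did not overlap, KO 2 was the highest array and HET 6 the lowest. The difference of 0.22 (SE 0.09), or 1.16-fold, had a limma unadjusted p of 0.035 and adjusted p = 1. Pold1, the catalytic subunit of polymerase delta, read 10.56, 10.31, 10.31, 10.21 and 10.15 in WT, 10.47, 9.91 and 9.94 in HET and 10.32, 10.58, 10.54 and 10.37 in KO. WT 8 lay among the highest KO arrays and all 3 groups overlapped (KO minus WT 0.14, SE 0.13). Pole3, a histone-fold subunit of polymerase epsilon, read 10.18, 10.09, 10.05, 9.92 and 10.19 in WT, 9.91, 9.27 and 10.17 in HET and 9.93, 9.99, 10.07 and 10.05 in KO. KO arrays lay within the WT range (difference −0.07), and HET 6 was the lowest array by a wide margin. The catalytic subunit Pole differed by −0.08 and the large primase subunit Prim2 by 0.08.

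**Figure D3:**
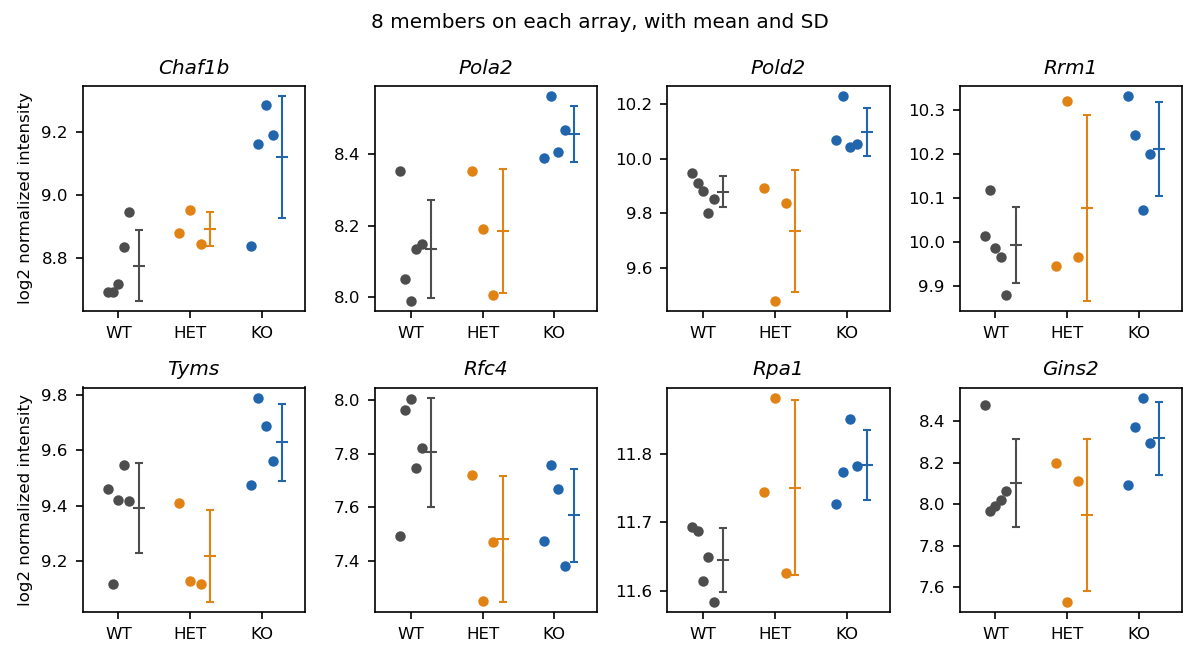
Log2 intensity on each array of Chaf1b, Pola2, Pold2, Rrm1, Tyms, Rfc4, Rpa1 and Gins2 (y axis, log2; dots are arrays, bars are mean ± SD of 5 WT, 3 HET and 4 KO arrays). KO arrays lie above all WT arrays for Pola2, Pold2 and Rpa1, while KO 1 lies inside the WT range for Chaf1b.

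The clamp loader subunits showed no common direction. Replication factor C opens the PCNA ring and sets it at a primer end, and 3 of its 5 subunits read higher in KO, with a median difference of 0.03. Rfc4 read 7.49, 7.96, 8.00, 7.75 and 7.82 in WT, 7.72, 7.25 and 7.47 in HET and 7.48, 7.76, 7.67 and 7.38 in KO. WT 8 was as low as the low KO arrays, and the groups overlapped. Its difference of −0.23 (SE 0.13, limma unadjusted p = 0.0931, adjusted p = 1) was the lowest of all 39 members. Rfc5 read 8.32, 8.36, 8.08, 8.23 and 8.18 in WT, 8.51, 8.35 and 7.97 in HET and 8.55, 8.58, 8.39 and 8.34 in KO. Only KO 4 lay inside the WT range, and the difference was 0.23 (SE 0.11, limma unadjusted p = 0.0604, adjusted p = 1). Rfc2 read 11.17, 10.95, 10.91, 10.98 and 11.12 in WT, 11.00, 10.91 and 11.04 in HET and 10.96, 11.11, 11.04 and 10.96 in KO, with full overlap and a difference of −0.01. The large subunit Rfc1 differed by 0.03 and Rfc3 by 0.08.

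All 3 subunits of replication protein A, which coats single-stranded DNA, read higher in KO than in WT. Of the 6 members in the single-strand binding and lagging-strand subgroup 5 read higher, with a median of 0.11. Rpa1, the DNA-binding large subunit, read 11.69, 11.69, 11.61, 11.65 and 11.58 in WT, 11.74, 11.88 and 11.63 in HET and 11.73, 11.77, 11.85 and 11.78 in KO. The KO arrays all lay above the WT arrays, by a narrow margin, and within the HET range. The difference was 0.14 (SE 0.08, limma unadjusted p = 0.0891, adjusted p = 1), that of Rpa3, the smallest subunit, was 0.16, and that of Rpa2 was 0.08. For Rpa3 the SE was 0.15 in the fit over all arrays and 0.06 without HET 6, with the same difference. Rnaseh2a, the catalytic subunit of the RNase H2 that removes ribonucleotides, read 8.70, 8.84, 8.81, 8.73 and 8.60 in WT, 8.87, 8.32 and 8.44 in HET and 8.85, 9.06, 8.68 and 8.89 in KO. KO 3 lay inside the WT range (difference 0.13). Lig1, the ligase that seals Okazaki fragments, read 9.28, 9.40, 9.34, 9.19 and 9.21 in WT, 9.45, 8.79 and 8.87 in HET and 9.11, 9.48, 9.33 and 9.15 in KO. The WT and KO arrays overlapped fully, with a difference of −0.02, while HET 6 and HET 7 lay below all other arrays. Fen1, the flap endonuclease, differed by 0.08.

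Nucleotide synthesis was the subgroup with the highest median difference in KO against WT, 0.22 on the log2 scale, and all 6 of its members read higher, from 0.08 (Rrm2) to 0.24 (Dut). Averaged over these 6 genes, KO arrays lay at 0.28, 0.21, 0.12 and 0.13 relative to the WT mean, WT arrays at 0.07, 0.00, −0.01, 0.02 and −0.09, and HET arrays at 0.06, −0.01 and −0.16. The KO arrays lay above all others, a description of 6 genes for which no test was made. Rrm1, the large subunit of ribonucleotide reductase, read 10.01, 10.12, 9.99, 9.96 and 9.88 in WT, 9.95, 10.32 and 9.96 in HET and 10.33, 10.24, 10.07 and 10.20 in KO. KO 3 lay inside the WT range and HET 6 beside the highest KO array. The difference was 0.22 (SE 0.10), or 1.16-fold, with a limma unadjusted p of 0.0413 and adjusted p = 1. The second Rrm1 probe ran the other way, with 8.01 ± 0.44 in WT, 7.60 ± 0.19 in HET and 7.66 ± 0.36 in KO (difference −0.36, SE 0.22, unadjusted p = 0.124 by limma), so the sign for Rrm1 depends on the probe. Tyms, thymidylate synthase, read 9.46, 9.12, 9.42, 9.55 and 9.42 in WT, 9.41, 9.13 and 9.12 in HET and 9.48, 9.79, 9.69 and 9.56 in KO. KO 1 lay inside the WT range and the HET arrays lay below all KO arrays. The difference from WT was 0.24 (SE 0.11), or 1.18-fold, with a limma unadjusted p of 0.0467 and adjusted p = 1, and its 3 other probes gave 0.10, 0.18 and 0.05. Thymidine kinase Tk1, of the salvage route, differed by 0.22 (unadjusted p = 0.103 by limma) and its second probe by 0.03. Dut, which breaks down dUTP, differed by 0.24 (unadjusted p = 0.0513 by limma), and deoxycytidine kinase Dck by 0.11.

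The histone chaperones were divided. Both large subunits of chromatin assembly factor 1, which places new H3 and H4 behind the fork, read higher in KO, and Asf1b (−0.05) and Nasp (−0.06) read slightly lower, so the median of the 4 was 0.02. Chaf1b read 8.69, 8.69, 8.72, 8.84 and 8.94 in WT, 8.88, 8.95 and 8.85 in HET and 8.84, 9.16, 9.28 and 9.19 in KO. KO 2, KO 3 and KO 4 lay above every WT and HET array, and KO 1 lay inside the WT range. The difference of 0.34 (95% interval 0.13 to 0.56), or 1.27-fold, had the lowest unadjusted p of the 39 members, 0.00421 by limma, with adjusted p = 1. Chaf1a read 9.13, 9.13, 8.80, 8.89 and 9.14 in WT, 9.14, 8.93 and 9.00 in HET and 9.18, 9.12, 9.15 and 9.03 in KO, with overlap and a difference of 0.10. Nasp, which carries H1 and H3, read 10.87, 10.94, 10.89, 10.67 and 10.80 in WT, 10.78, 11.18 and 10.85 in HET and 10.80, 10.78, 10.90 and 10.62 in KO. HET 6 was the highest array and KO and WT overlapped.

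Origin genes lay close to WT in KO. Of 9 measured members 5 read higher, with a median of 0.03, and the licensing and firing factors Orc1 (−0.01), Orc6 (0.09), the kinase Cdc7 (0.03), its activator Dbf4 (−0.00) and the helicase cofactor Cdc45 (0.02) lay near 0. The GINS complex, which joins the MCM ring and Cdc45 in the working helicase, was split between its 4 subunits. Gins1 read 8.66, 8.35, 8.28, 8.48 and 8.78 in WT, 8.50, 7.36 and 8.78 in HET and 8.06, 8.43, 8.48 and 8.27 in KO (difference −0.20, SE 0.23), with HET 6 far below the other arrays. Gins2 read 8.48, 7.97, 7.99, 8.02 and 8.06 in WT, 8.20, 7.53 and 8.11 in HET and 8.09, 8.37, 8.51 and 8.29 in KO. WT 8 lay among the KO arrays, above the other 4 WT arrays, and the difference was 0.21 (SE 0.15, unadjusted p = 0.18 by limma). Gins3 read 6.74, 6.66, 6.75, 6.43 and 6.74 in WT, 6.56, 6.51 and 6.30 in HET and 6.70, 6.74, 6.76 and 6.42 in KO, with a difference of −0.01. WT 11 and KO 4 lay well below the others of their group. Gins4 read 11.16, 11.18, 11.16, 11.21 and 11.32 in WT, 11.32, 10.86 and 11.19 in HET and 11.23, 11.36, 11.16 and 11.26 in KO, with overlap and a difference of 0.05.

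Timeless and Tipin, which travel together with the fork and keep polymerase and helicase coupled, both read slightly higher in KO. Tipin read 11.22, 11.44, 11.08, 10.99 and 11.23 in WT, 11.03, 10.78 and 11.63 in HET and 11.28, 11.33, 11.18 and 11.24 in KO. Timeless read 8.07, 7.73, 7.79, 7.84 and 7.76 in WT, 8.08, 7.52 and 7.54 in HET and 7.92, 8.05, 8.07 and 7.77 in KO. The WT and KO arrays overlapped for both, with differences of 0.06 for Tipin and 0.12 for Timeless.

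With a single Rb1 copy deleted in Sertoli cells, the members lay on both sides of WT, and the side that held more of them depended on 1 array. Of 39 members 17 read higher in HET than in WT, with a median of −0.04, beside 47.7 percent above 0 and a median of −0.01 for all genes. By limma 0 members had an adjusted p under 0.05, as did 0 percent of all genes tested, and the members' adjusted p ran from 0.5 to 0.997. Rfc4 was the only member with an unadjusted p under 0.05, at −0.32 (95% interval −0.63 to −0.02, unadjusted p = 0.0388), which is 2.56 percent of the members beside 6.09 percent of all genes lower at that level. None of the 39 was higher at that level, where 3.67 percent of all genes were, and 9.77 percent of all genes were past it in either direction. HET and WT separated completely for 0 members in either direction, where 1.02 percent of all genes lay higher and 1.66 percent lower in HET. Polymerases had the lowest subgroup median (−0.14, 2 of 7 above 0), and all 4 histone chaperones read higher (median 0.11). The other medians were −0.04 for clamp and loader, −0.06 for single-strand binding and lagging-strand processing, −0.03 for nucleotide synthesis, and −0.08 for both origin genes and fork protection. HET 6 was the lowest of the 12 arrays for 15 of the 39 members and the highest for 6, and it was the lowest for 25.8 percent and the highest for 25.2 percent of all genes. The SD was larger in HET than in WT for 31 of 39 members, as for 71.8 percent of all genes, with median SDs of 0.23 in HET, 0.14 in WT and 0.12 in KO. Without HET 6 alone the median was 0.01, with 21 of 39 above 0, and with arrays weighted by their quality it was 0.01, with 24 of 39. With WT 12, HET 6 and HET 7 left out, the HET group is 1 array, HET 5, and the median turned to 0.08 with 27 of 39 above 0. Without HET 5 the test called 173 genes, of which 0 were members, and 6 members were lower at an unadjusted p under 0.05. The share of all genes at that level without HET 5 is not given here, so this count is not read as a result about the members.

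The KO arrays were also set against the HET arrays, a comparison that shares its KO arrays with the first and its HET arrays with the second. Of 39 members 31 read higher in KO (median 0.13), beside 53 percent above 0 and a median of 0.01 for all genes. The adjusted p by limma was under 0.05 for 0 members and for 0 percent of all genes, with members between 0.657 and 0.988. Pold2, Tyms, Rpa3, Pola2, Rnaseh2a, Pold1 and Tk1 were higher in KO at an unadjusted p under 0.05, 7 members or 17.9 percent, beside 4.58 percent of all genes, and 0 members were lower, beside 2.42 percent. Pola2, Pold2, Rpa3 and Tyms did not overlap between KO and HET, 4 members or 10.3 percent beside 2.93 percent of all genes, and 0 members lay wholly lower in KO, beside 2.31 percent. Tyms differed by 0.41 (SE 0.12, limma unadjusted p = 0.00512) and Pold2 by 0.36 (limma unadjusted p = 0.00467). Rpa3 had the largest difference of the 39, 0.43 (limma unadjusted p = 0.026), with 10.30 ± 0.51 in HET beside 10.74 ± 0.04 in KO. It read 10.59, 9.71 and 10.61 on HET 5 to HET 7, so HET 6 lay far below the others. Without HET 6 the difference was 0.14 for Rpa3 (limma unadjusted p = 0.0966), 0.37 for Tyms and 0.23 for Pold2. Polymerases (median 0.23, 5 of 7 above 0) and nucleotide synthesis (0.19, 6 of 6) had the highest medians, and histone chaperones the lowest (−0.03, 2 of 4). Without HET 6 the polymerase median was −0.03, with 3 of 7 above 0, while that of nucleotide synthesis was 0.26, with 6 of 6. The 31 of 39 count rested in part on the HET arrays. It was 23 of 39 (median 0.08) without HET 6, and 21 of 39 (median 0.01) without WT 12, HET 6 and HET 7. Without HET 5 the median was 0.21, and the test called 62 genes, of which 0 were members. The 7 members at an unadjusted p under 0.05 became 12 without HET 5 and 3 without KO 2. The 4.58 percent of all genes applies to the full set of arrays, and the share without these arrays is not given here. The HET mean lay between those of WT and KO for 10 of the 39 members.

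Another reading of the same genes comes from the other probes. A second or further probe was detected for 14 members, and in 7 of them (Lig1, Nasp, Prim2, Rfc2, Rfc5, Rrm1 and Tipin) at least 1 such probe gave a KO minus WT difference of the opposite sign. The same held for 12 of the 14 in HET against WT and 10 of the 14 in KO against HET. Of the 5 members with the lowest unadjusted p values in KO against WT, Chaf1b, Pola2 and Pold2 had a single detected probe. For Gins2 the other probes gave 0.32 and 0.09. In HET against WT the other Lig1 probes gave 0.38, −0.60 and 0.10, the last but one with an unadjusted p of 0.000687 and an adjusted p of 0.47 over all probes by limma.

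**Figure D4:**
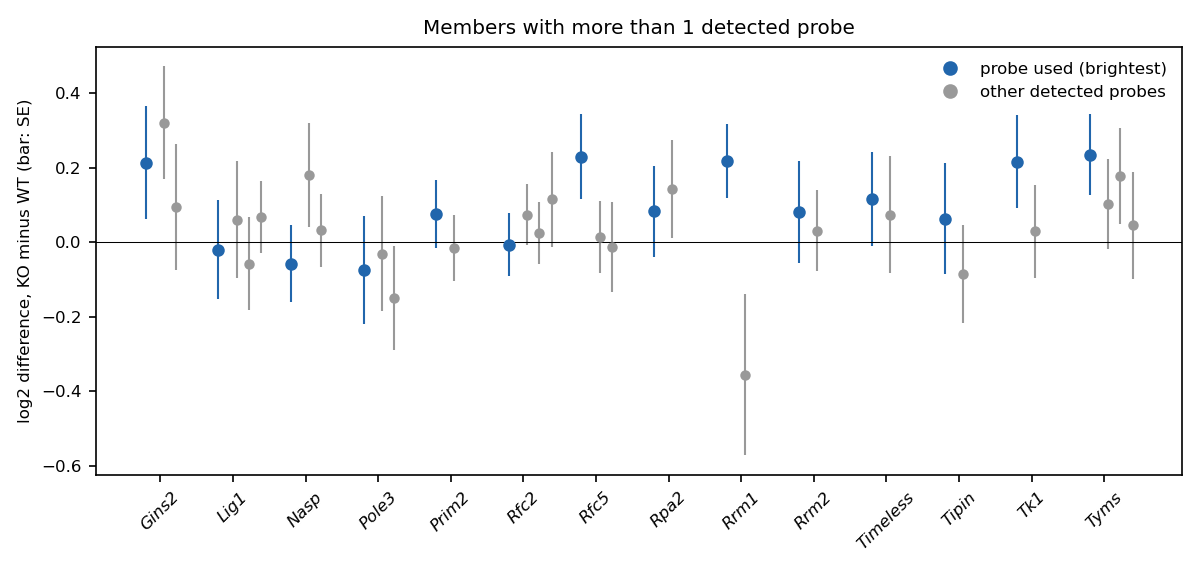
KO minus WT log2 difference ± SE for each detected probe of the 14 members with more than 1 (y axis, log2 difference; x axis, genes; blue is the brightest probe, used in the counts, and grey the others). Probes of a gene often lie on opposite sides of 0, and those of Rrm1 lie furthest apart, at 0.22 and −0.36.

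Column names in the unnormalized table end in a number whose meaning is not stated in the labels or headers used here, and the 12 numbers were cut into the lower 6 and the upper 6. The cut falls between consecutive numbers, so it follows no gap in them. The lower set held WT 8, WT 9, HET 5, HET 6, KO 1 and KO 2. Within the lower set 24 of 39 members read higher in KO than in WT, with a median of 0.01, beside 53.4 percent and a median of 0.01 for all genes. Within the upper set 29 of 39 did, with a median of 0.11, beside 48.9 percent and −0.00 for all genes. Nucleotide synthesis genes read higher in both sets, with 5 of 6 members and a median of 0.24 in the lower and 6 of 6 and 0.16 in the upper. Pola2 differed by 0.28 and 0.35, Chaf1b by 0.31 and 0.40, Pold2 by 0.22 and 0.20, Rrm1 by 0.22 and 0.19 and Tyms by 0.34 and 0.16. For Gins2 the values were 0.01 and 0.38, and for Rfc4 −0.11 and −0.33. Pola2, Chaf1b, Pold2, Rrm1 and Tyms were picked by their p over all 12 arrays, which make up both sets. A shared sign in both sets is therefore no independent evidence.

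Other genes of DNA replication were counted as a list of 48, of which 39 were tested. In KO against WT 26 of the 39 (66.7 percent, beside 50.5 percent of all genes) read higher, with a median of 0.05. At an unadjusted p under 0.05, 3 were higher (7.69 percent, beside 1.61 percent of all genes). All 3 were subunits of the MCM ring that unwinds DNA at the fork. Mcm2 read 10.32, 10.33, 10.04, 10.26 and 10.08 in WT, 10.39, 10.64 and 10.33 in HET and 10.50, 10.54, 10.57 and 10.45 in KO. The KO arrays lay above every WT array, and HET 6 lay above all of them (difference 0.31, SE 0.09, limma unadjusted p = 0.00592, adjusted p = 1). Mcm4 differed by 0.23 (unadjusted p = 0.0269) and Mcm6 by 0.28 (unadjusted p = 0.03), each with adjusted p = 1 by limma. Mcm2 was the one of the 3 under that level in each repeat with 1 array left out, and without KO 3 it was the only one. In HET against WT 16 of the 39 (41 percent, beside 47.7 percent of all genes) read higher, with a median of −0.06. At an unadjusted p under 0.05, 3 were higher and 2 lower, beside 3.67 percent of all genes higher and 6.09 percent lower. The same MCM genes also read higher in HET, by 0.24 for Mcm2 (unadjusted p = 0.0313), 0.20 for Mcm4 and 0.22 for Mcm6, and KO minus HET was 0.06, 0.03 and 0.06. These comparisons share their WT or HET arrays.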

How the data were processed

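Total RNA of whole testis in 12 samples (5 WT, 3 HET, 4 KO, grouped by sample title) was read on Illumina BeadChips. For 45281 probes the authors deposited an unnormalized mean bead intensity (linear), together with its detection p-value, per the file headers. The authors' processed values, also deposited as intensity, differed from a quantile normalization of these by at most 4.87e-08 percent and served as an alternative.

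Intensities were background-corrected (normexp, offset 16), quantile normalized and taken to log2 with limma 3.58.1 (neqc) in R 4.3.3. A probe was kept if its detection p lay under 0.05 on 3 or more arrays (20170 probes), and the brightest probe stood for each of 11076 genes. Gene names came from the platform annotation: 34885 probes had 1 symbol, 18 several and 10378 none in the table used here. Of the first, 34807 matched a gene in the GRCm38.p6 table by Entrez identifier and 0 symbols changed. A single limma fit over all 12 arrays gave 3 contrasts, with Benjamini-Hochberg adjustment over all 11076 genes and a threshold of 0.05. The procedure was tested on simulated data. The differences added there were larger than any member difference in the main fit, so detection of differences as small as the members' was not assessed.

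Members, subgroups and lists were chosen with earlier results of these data known, so lists are described by counts and medians and have no test of their own. Named in full were, in each subgroup, the 2 members with the smallest p in KO against WT, the 1 with the smallest p in HET against WT and the 1 with the highest mean. Alternatives changed the normalization, probe filter, probe choice, variance model, control group and arrays used. The E2F core search and the values within column-number sets were added after seeing the data, as were the counts with 1 array left out and the motif share among tested members. The number of arrays limits the precision.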

Additional observations from a re-analysis of the deposited data

Results flagged for a closer look

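In 3 of 58 groups of 4 or 5 arrays, 1 array stood far from the others of its group, where chance alone would give about 2.9. The groups were the WT and the KO arrays, taken for each named member, for the mean over all members and for each subgroup mean. Pold2 read 10.23 on KO 2, beside 10.04 to 10.07 on the other KO arrays. Gins2 read 8.48 on WT 8, beside 7.97 to 8.06 on the other WT arrays. Gins3 read 6.43 on WT 11, beside 6.66 to 6.75 on the other WT arrays.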

How the results depend on the processing

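No member named in full passed the adjusted threshold by limma under any alternative, in 525 repeats for KO against WT (lowest adjusted p 0.307) and 504 for HET against WT (lowest 0.0642). The number of genes called, 0 in each comparison, became 2 in KO against WT without WT 12, HET 6 and HET 7 together. Leaving out 1 array gave 0 to 173 genes in HET against WT and 0 to 62 in KO against HET, both upper values without HET 5, and the cause was not tested. The members' median KO minus WT difference stayed above 0 under every alternative run, from 0.0512 to 0.12. HET minus WT turned from −0.0424 to 0.00804 without HET 6 alone, 0.0126 with array weights and 0.0768 without the 3 arrays together, and KO minus HET was 0.00836 there and ranged from 0.0817 to 0.21 with 1 array left out. The nucleotide synthesis median in KO against WT ranged from 0.12 (mean of probes, 5 of 6 above 0) to 0.24. In KO against WT the sign changed for 7 named members under some alternative, among them Rrm1, which had a second probe of opposite sign. The mean of probes gave Rfc2 0.0521, Lig1 0.0134, Rrm1 −0.0684, Nasp 0.0523 and Tipin −0.0104, and array weights gave Rfc2 0.031 and Gins3 0.0289. WT with HET as control gave Pole3 0.0392, Rfc2 0.00922, Lig1 0.0743 and Gins3 0.0672, and leaving out the 3 arrays gave Rfc2 0.0169 and Gins3 0.010. In HET against WT it changed for 16. Scaling to the same median gave Chaf1a −0.0343, and the mean of probes gave Rfc2 0.0338, Rfc5 −0.0257, Rrm1 −0.17 and Tipin 0.00302. Array weights gave Rfc2 0.0122, Gins1 0.0126, Gins2 0.0227, Gins4 0.0318 and Tipin 0.072, and the column-number block gave Rfc5 −0.0217 and Chaf1a −0.0252. Leaving out the 3 arrays gave Pold1 0.12, Pold2 0.00658, Lig1 0.14, Rnaseh2a 0.10, Rrm1 −0.075, Tyms 0.0228, Nasp −0.0603, Gins1 0.0600, Gins2 0.0864, Gins4 0.15 and Timeless 0.22. With 1 array left out, KO minus WT ranged from −0.0382 to 0.0296 for Rfc2, −0.0900 to 0.0341 for Lig1 and −0.0678 to 0.0691 for Gins3, and HET minus WT from −0.0359 to 0.14 for Pola2, −0.072 to 0.20 for Rfc5, −0.0372 to 0.15 for Rrm1, −0.0533 to 0.0492 for Chaf1a, −0.0194 to 0.18 for Nasp, −0.58 to 0.13 for Gins1, −0.28 to 0.0531 for Gins2, −0.18 to 0.0508 for Gins4 and −0.29 to 0.14 for Tipin. No paired analysis was possible because the 3 groups share no replicate number. Signal over background limited the set by 5 of 44 members.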
